A study of Mus musculus with 16 samples.

Results

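The comparison described here was between livers of knockout and control mice that had eaten the low-fat control diet. It gives the genotype difference in mice that did not receive the steatohepatitis diet. Its members were the 752 genes listed in both deposited tables, of 5205 genes in either of them, and for each member the counts of 4 TSP1ΔPf4 livers were set against those of 4 TSP1F/F livers. Of these genes 702 were protein coding. The tables list genes selected for a difference between the diets within one genotype, and the same LF-fed mice took part in that selection, so the members are diet-responsive genes and not a sample of the liver transcriptome. Of the 752 genes, 640 passed a filter on low counts and were tested, and 112 were not.

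All mice were male on a C57BL6 background and carried floxed alleles of Thbs1, the gene of thrombospondin 1 (TSP1). TSP1ΔPf4 mice also carried Pf4-Cre, whose promoter is active in megakaryocytes and the platelets they shed, and the TSP1F/F controls were littermates without the deletion. Both groups had the LF diet for 32 weeks, and the other 8 of the 16 mice, which had the AMLN diet (rich in fat, fructose and cholesterol), enter only where named. None of the sequenced groups had Cre without floxed alleles, so an effect of the transgene and an effect of the deletion cannot be told apart. The supplement of the study lists both genotypes at an age of 8 weeks, without saying at which step.

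Thrombospondin 1 is a large matrix glycoprotein that platelets store in their alpha granules and release on activation. It binds CD36 and CD47 on other cells and can activate latent TGF-beta, a driver of collagen production by stellate cells. Platelets have no nucleus and little RNA, so a deletion in them is read in liver RNA mainly through other cells: hepatocytes, which supply most of the RNA, Kupffer cells and other leukocytes, stellate cells and endothelium.

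No gene passed the thresholds for a genotype difference on the LF diet. With edgeR's quasi-likelihood test and Benjamini-Hochberg adjustment over the 640 genes, 0 (0%) had an adjusted p under 0.05 with an absolute log2 fold change over 0.25, and the lowest adjusted p was 0.554. At an unadjusted p under 0.05, 25 genes (3.91%) leaned higher and 19 (2.97%) leaned lower in TSP1ΔPf4 livers, 44 in all. With no genotype effect, a share of about 0.05 of genes would reach that threshold, so a leaning alone does not show a difference. DESeq2's Wald test called 1 gene, Plcb4, with an adjusted p of 0.0241. On the AMLN diet the same edgeR test called 62 of 733 genes (8.46%) lower and 4 (0.546%) higher in TSP1ΔPf4 livers. Calls on 1 diet and none on the other do not show that the genotype effects differ. A test of that difference in edgeR called 3 of 734 genes (0.409%).

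The members were therefore described by size and interval. The median log2 fold change (TSP1ΔPf4 over TSP1F/F, here and below) was 0.03 over the 640 genes, and the middle 50% of genes lay between -0.32 and 0.44. Above 0 lay 339 genes (53.0%) and below it 301. The median size, regardless of sign, was 0.38. A fold change above 2 in either direction was estimated for 59 genes, 38 higher and 21 lower. The 95% intervals were wide, with a median half-width of 0.92 on the log2 scale. They lay within a 2-fold change either way for 173 genes and within a 4-fold change for 513. For the other genes the interval took in a 2-fold difference, so that missing the threshold does not show that the genotypes were alike.

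The narrowest intervals belonged to abundant hepatocyte genes. Ndrg2, a stress-responsive gene of differentiated cells, had 1150, 1332, 1388 and 1375 CPM in TSP1F/F livers and 1394, 1318, 1312 and 1360 in TSP1ΔPf4 livers, where CPM is the count relative to the library total. Its log2 fold change was 0.04 (95% interval -0.40 to 0.47). Serpina1a, an alpha-1 antitrypsin, gave 0.16 (-0.27 to 0.59) and Apof, an apolipoprotein, -0.14 (-0.58 to 0.30). The 5 members with the highest level per length were Mup3 (15780 FPKM, mean of the 8 LF livers), Serpina3k (8116), Fabp1 (4944), Ttr (4522) and Rbp4 (4023), all secreted or lipid-binding hepatocyte proteins. Ttr and Rbp4, which together carry retinol in plasma, differed by 0.00 (-0.46 to 0.47) and 0.03 (-0.45 to 0.50). Mup3, Serpina3k and Fabp1 gave -0.35 (-1.19 to 0.49), -0.16 (-0.83 to 0.52) and 0.06 (-0.80 to 0.91).

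Single mice moved many members together. TSP1F/F replicate 3 was the highest of the 8 LF-fed mice in 211 of the 640 genes (33.0%) and the lowest in 134, and TSP1F/F replicate 1 was the lowest in 158. Gene length moved with these deviations. Across the 640 genes the Spearman correlation of gene length with a mouse's deviation from the mean of the 8 was -0.36 for TSP1F/F replicate 3, -0.21 for replicate 2 and -0.19 for TSP1ΔPf4 replicate 3, against 0.36 for TSP1ΔPf4 replicate 2 and 0.29 for replicate 1. For the log2 fold change itself the correlation with length was 0.25, over genes that share the same 8 libraries.

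**Figure D1:**
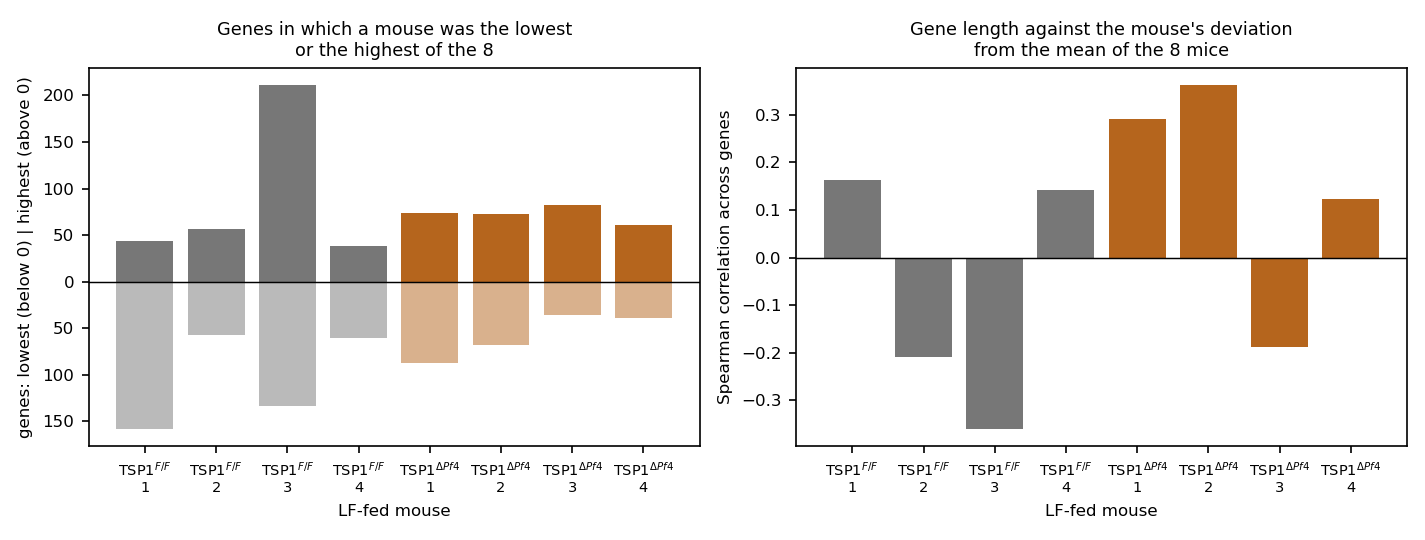
Left, bars above 0 count the genes, of the 640 tested, in which each LF-fed mouse was the highest of the 8, and pale bars below 0 those in which it was the lowest (grey, TSP1F/F; brown, TSP1ΔPf4); TSP1F/F replicate 3 was the highest in 211. Right, bars give the Spearman correlation across genes between gene length and the mouse's deviation, from -0.36 in TSP1F/F replicate 3 to 0.36 in TSP1ΔPf4 replicate 2.

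By length, the 213 shortest genes (up to 2284 bases) had a median log2 fold change of -0.13, the 213 in the middle 0.03 and the 214 longest (from 4771 bases) 0.28. Of the longest genes 13 leaned higher and 1 leaned lower, and of the shortest 4 leaned higher and 7 lower. In these classes 144 of the longest and 85 of the shortest genes were above 0. Without TSP1F/F replicate 3 the medians of the shortest and the longest class were 0.06 and 0.17, and without replicate 3 of either genotype -0.05 and 0.17. The part of transcript length or RNA quality in the differences given below was not tested.

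Axl, Laptm5, Rac2, Csf1r, Cd74, Cybb and Lsp1, all known from leukocytes or phagocytes, were among the 25 genes that leaned higher, and they were put together here after their values were seen. Axl, a receptor tyrosine kinase with which macrophages recognise dying cells, had 4.91, 3.22, 3.97 and 5.48 CPM in TSP1F/F and 8.82, 9.71, 7.71 and 9.92 CPM in TSP1ΔPf4 livers. Every knockout value was above every control value. Its log2 fold change was 1.04 (0.39 to 1.69), with an adjusted p of 0.554 by edgeR. Laptm5, a lysosomal membrane protein of blood cells, had 2.87, 2.68, 1.10 and 6.19 CPM against 7.01, 8.60, 7.24 and 9.02 CPM, a difference of 1.30 (0.30 to 2.31). Rac2, the GTPase that drives the phagocyte oxidase, had 1.83, 1.18, 0.662 and 0.788 CPM against 2.34, 2.85, 3.74 and 2.86 CPM, a difference of 1.40 (0.37 to 2.44). Neither of these genes overlapped between the groups.

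Csf1r, the receptor for the growth factor on which macrophages depend, had 6.16, 4.98, 4.85 and 7.88 CPM in TSP1F/F and 10.8, 9.03, 9.52 and 12.0 CPM in TSP1ΔPf4 livers, again without overlap, and a difference of 0.79 (0.16 to 1.42). Its exons lie in part under those of Hmgxb3 on the other strand, and since it is not stated whether counting used strand, reads of the pair cannot be told apart. Cd74, the invariant chain of MHC class II, differed by 0.84 (0.18 to 1.51) and Cybb, the membrane subunit of the phagocyte oxidase, by 0.76 (0.02 to 1.5). Lsp1, an actin-binding protein of leukocytes, was at 0, 0.482, 0.331 and 1.24 CPM in TSP1F/F and at 1.59, 2.75, 1.87 and 2.07 CPM in TSP1ΔPf4 livers, a difference of 1.97 (0.13 to 3.81). Of all 112 members that were too low to be tested, 2 did not overlap between the groups, both at levels near 0. They were Il2rg, a shared interleukin receptor chain (0 to 0.150 against 0.175 to 1.27 CPM), and Sh2b2, an adaptor protein (0 to 0.263 against 0.409 to 0.676 CPM). So small a count adds nothing to the genes above. In bulk liver RNA, more cells of a type and more RNA per cell cannot be told apart.

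The marker lists of macrophages did not share that direction. Of the 8 tested Kupffer cell markers, 4 were above 0 and 4 below, with a median log2 fold change of -0.05 beside 0.03 over all genes, and Csf1r alone leaned at the unadjusted threshold. The complement genes C1qb and C1qc, made by Kupffer cells, differed by 0.01 (-0.84 to 0.87) and 0.01 (-0.70 to 0.71), and Vsig4, a complement receptor of these cells, by -0.13 (-0.89 to 0.63). Of the 8 tested markers of monocyte-derived macrophages, 2 were above 0 and 6 below, with a median of -0.67, and 0 leaned. Lyz2, lysozyme of myeloid cells, had 35.8, 98.2, 379 and 36.7 CPM in TSP1F/F and 35.9, 35.6, 87.3 and 46.0 CPM in TSP1ΔPf4 livers, a difference of -1.42 (-2.94 to 0.09) that was -0.15 without TSP1F/F replicate 3. Without that mouse the median of this list was 0.04, and that of the Kupffer cell list 0.40. Without replicate 3 of either genotype they were -0.54 and 0.22, and Lyz2 gave -0.54. Over all 640 genes the median was 0.11 without TSP1F/F replicate 3 and 0.04 without replicate 3 of either genotype.

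Adgre1, a macrophage surface marker, was high in replicate 3 of either genotype, at 19.2 CPM against 3.48 to 3.86 in the other TSP1F/F livers and at 14.7 CPM against 4.20 to 7.96 in the other TSP1ΔPf4 livers. Its difference was 0.11 (-1.25 to 1.47). Summed over the marker list, Kupffer cell genes ranged from 69.2 to 233 CPM in TSP1F/F and from 91.6 to 172 CPM in TSP1ΔPf4 livers, and those of monocyte-derived macrophages from 48.2 to 418 and from 45.5 to 111 CPM. Both ranges overlapped. None of the markers of platelets and megakaryocytes, natural killer cells, B cells or pancreas was among the 752 members, so these cells were not read.

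**Figure D2:**
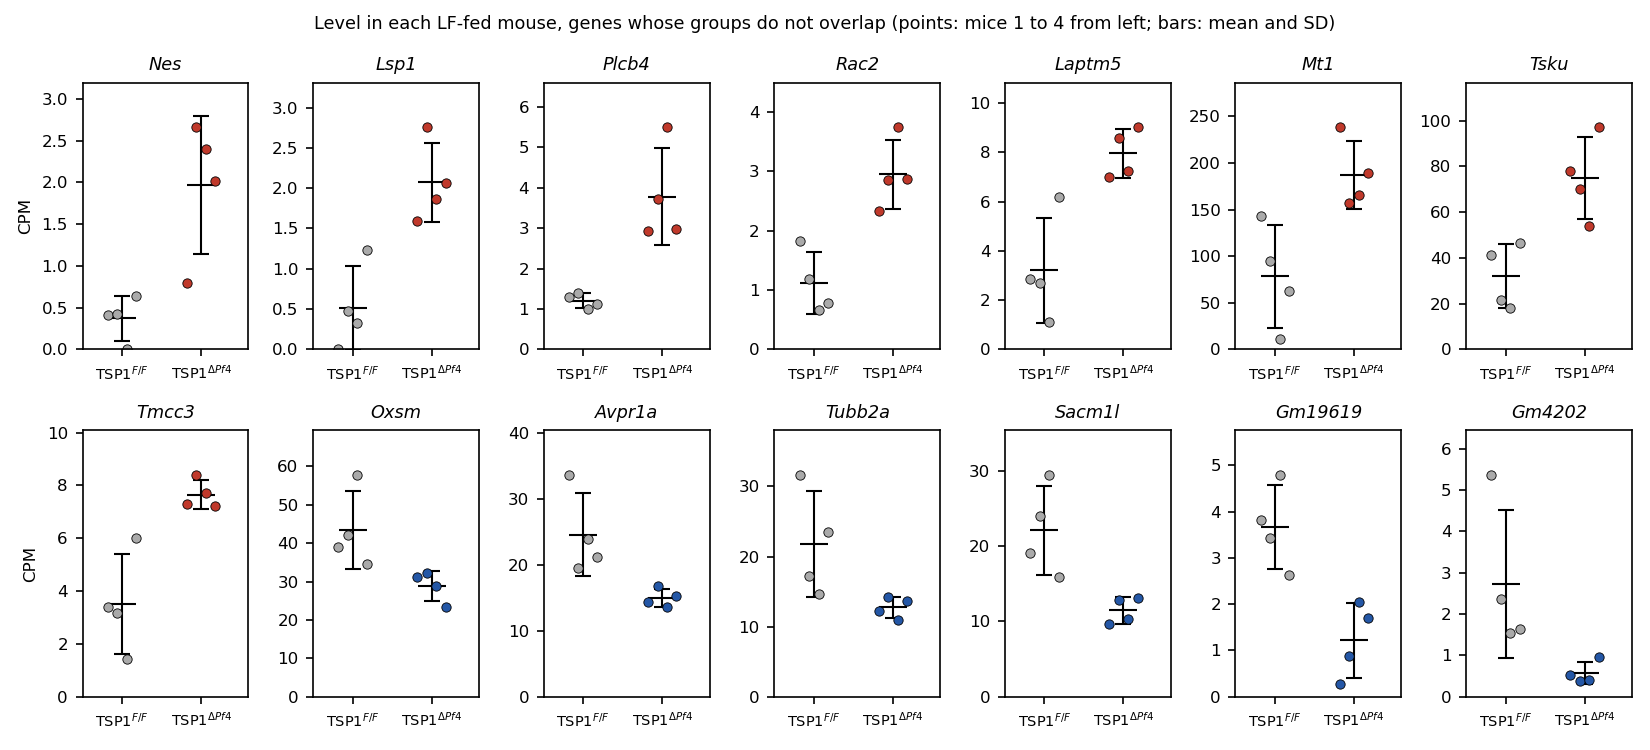
Level of 14 genes in each LF-fed mouse, in CPM on axes that start at 0, with replicates 1 to 4 from left to right, grey for TSP1F/F and red or blue for TSP1ΔPf4, and the mean and SD of the 4 mice as bars. The genes are those with the largest differences among the genes at an unadjusted p under 0.05 whose groups do not overlap, 8 higher and 6 lower in TSP1ΔPf4.

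Of the 640 genes, 22 (3.44%) had every TSP1ΔPf4 value above every TSP1F/F value and 10 (1.56%) every value below. Of these, 15 and 6 also leaned at the unadjusted threshold. If the 8 values of a gene were in random order, the groups would fail to overlap in a share of 0.0286 of cases, both directions together. That share holds for 1 gene. The 640 genes share the same 8 libraries and were selected in part through these LF values, so an excess over it cannot be read from the counts. Plcb4, a phospholipase C that signals from G protein-coupled receptors, had the lowest p of all members. It was at 1.30, 1.39, 0.993 and 1.13 CPM in TSP1F/F and at 2.92, 3.72, 5.49 and 2.97 CPM in TSP1ΔPf4 livers, from 18 to 30 and from 55 to 94 counts. The control mice were close together and the knockout mice all higher, and the difference was 1.64 (0.76 to 2.53) with an adjusted p of 0.554 by edgeR. It held an unadjusted p under 0.05 with any 1 of the 8 mice left out, in fits that reuse the mice in which it was picked out.

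Tsku, a small secreted leucine-rich protein made by the liver, had 41.4, 21.7, 18.3 and 46.5 CPM in TSP1F/F and 77.9, 70.1, 53.9 and 97.0 CPM in TSP1ΔPf4 livers, a difference of 1.22 (0.47 to 1.97). Zhx2, a transcriptional repressor known for silencing fetal genes in adult liver, had 6.32, 3.16, 4.47 and 5.97 CPM against 9.19, 9.9996, 9.46 and 8.59 CPM, a difference of 0.90 (0.23 to 1.58). In both genes the lowest knockout value lay above the highest control value. Tmcc3, a membrane protein of the endoplasmic reticulum, differed by 1.12 (0.23 to 2.02). Nes, the intermediate filament protein nestin, was at 0, 0.418, 0.429 and 0.638 CPM in the TSP1F/F and at 0.797, 2.02, 2.39 and 2.66 CPM in the TSP1ΔPf4 livers, ordered by level, a difference of 2.36 (0.58 to 4.14) that rests on 0 to 17 and 15 to 55 counts.

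Mt1, a metallothionein that binds zinc and is induced by stress and metals, had 143, 95.3, 11.4 and 62.8 CPM in TSP1F/F and 238, 157, 166 and 189 CPM in TSP1ΔPf4 livers. The groups did not overlap, yet its difference of 1.26 (0.05 to 2.47) kept an unadjusted p under 0.05 in only 2 of the 8 fits that each left out 1 mouse. Hba-a2, an alpha-globin of red blood cells, had 17.4 CPM in TSP1ΔPf4 replicate 1 and 1.06 to 3.24 CPM in the other 3. Without that mouse its difference was 0.76 instead of 2.12. It was the only member on the red blood cell list, so that list gave no second reading.

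The immediate early transcription factors Fos and Fosb, which cells switch on within minutes of a stimulus, leaned higher. Fos had 0.992, 7.07, 3.92 and 2.29 CPM in TSP1F/F and 9.19, 18.3, 9.34 and 4.35 CPM in TSP1ΔPf4 livers, a difference of 1.53 (0.25 to 2.80) with overlapping groups. Fosb was at 0 in 3 TSP1F/F livers and at 0.750 CPM in the other one, and at 1.06, 3.33, 0.350 and 0.849 CPM in TSP1ΔPf4 livers. All 5 tested members of the immediate early list were above 0, and the remaining 3, Fosl2, Cyr61 and Klf6, gave 0.42, 0.30 and 0.13 with intervals that covered 0. Acot3, a peroxisomal acyl-CoA thioesterase and PPARα target, leaned higher as well, at 20.7, 70.3, 38.0 and 90.6 CPM against 77.9, 94.2, 193 and 198 CPM, a difference of 1.36 (0.34 to 2.38). Its exons overlap Gm49366, a protein-coding gene on the same strand, and an antisense gene. It was the 1 gene of 9 tested on the PPARα list that leaned, and the median of that list was 0.04. A further 6 higher-leaning genes were Msn (moesin, which ties actin to the membrane, at 0.86), Tgfbi (a matrix protein induced by TGF-beta, at 0.54), Tspyl1 (0.57), Sdc3 (a syndecan, at 0.96), Acer2 (a ceramidase, at 1.05) and the receptor gene Adgrd1 (1.54), of which the first 3 did not overlap between the groups.

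Among the genes that leaned lower, 3 of the 4 lowest ratios belonged to noncoding genes. Gm4202, a processed pseudogene, had 5.38, 2.36, 1.54 and 1.65 CPM in TSP1F/F and 0.531, 0.386, 0.409 and 0.955 CPM in TSP1ΔPf4 livers. The groups did not overlap and the difference was -2.25 (-3.55 to -0.95), but reads of a processed pseudogene can be shared with the gene it was copied from. Gm19619, a long intergenic RNA, was at 3.81, 3.43, 4.80 and 2.63 CPM against 0.266, 0.870, 2.04 and 1.70 CPM, a difference of -1.59 (-2.84 to -0.34). Hectd2os, a transcript antisense to Hectd2, had 19.0, 71.2, 115 and 34.5 CPM against 21.8, 19.3, 20.8 and 17.7 CPM, so that 3 control livers were above all knockout livers and 1 was among them. Its difference was -1.59 (-2.60 to -0.58), and its reads cannot be told apart from those of Hectd2 where counting ignored strand.

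Idi1, an isomerase of the isoprene units from which cholesterol is built, had 21.5, 11.9, 22.3 and 3.45 CPM in TSP1F/F and 5.26, 5.07, 2.34 and 4.14 CPM in TSP1ΔPf4 livers. Replicate 4 of the controls lay among the knockout mice, and the difference was -1.81 (-2.94 to -0.68). Its exons overlap Gm48574 on the other strand. The other 6 tested sterol synthesis genes did not lean. Cyp51, a demethylase of the same pathway, gave -0.50, and the list's median was -0.24. Scd1, the stearoyl-CoA desaturase, gave 0.74 (-0.26 to 1.75), and all 3 tested genes of fatty acid synthesis were above 0 without leaning.

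Sacm1l, a lipid phosphatase of the endoplasmic reticulum, had 19.2, 24.0, 29.5 and 15.9 CPM in TSP1F/F and 9.61, 12.9, 10.3 and 13.2 CPM in TSP1ΔPf4 livers, a difference of -0.94 (-1.55 to -0.34) without overlap. Avpr1a, the hepatocyte vasopressin receptor, differed by -0.71 (-1.27 to -0.15), Tubb2a, a beta-tubulin, by -0.77 (-1.41 to -0.13), and Oxsm, a mitochondrial fatty acid synthase component, by -0.59 (-1.13 to -0.04). These 3 genes did not overlap between the groups either. Part of the exons of Sacm1l and Oxsm overlap genes on the other strand. In all, 10 of the 44 leaning genes share exon positions with another annotated gene, 8 of them with one on the other strand, so that their reads may be divided otherwise; small RNA or antisense genes overlap Cd74, Msn and Sdc3.

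A further 8 lower-leaning genes lay between -0.91 and -0.67 and overlapped between the groups. They were Slc35d2, Car8 (a carbonic anhydrase relative), Hdhd3, Ttc9c, the pseudogene Gm10319, Adh4 (an alcohol dehydrogenase), Mtap (of methionine salvage) and Aqp8.

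A pair of lower-leaning hepatocyte genes moved with replicate 3. Sult2a8, a sulfotransferase for bile acids, had 1570, 3134, 6959 and 1363 CPM in TSP1F/F and 1070, 961, 2282 and 1517 CPM in TSP1ΔPf4 livers. Slco1a1, an organic anion transporter that is high in male liver, had 508, 486, 1509 and 421 CPM against 338, 328, 501 and 348 CPM. In both genes replicate 3 was the highest of its genotype. Without TSP1F/F replicate 3 the log2 fold change of Sult2a8 was -0.47 instead of -1.16 and that of Slco1a1 -0.32 instead of -0.95. Without replicate 3 of either genotype they were -0.77 and -0.48. That mouse was the highest of the 8 in 14 of the 19 lower-leaning genes and the lowest in 13 of the 25 higher-leaning genes.

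**Figure D3:**
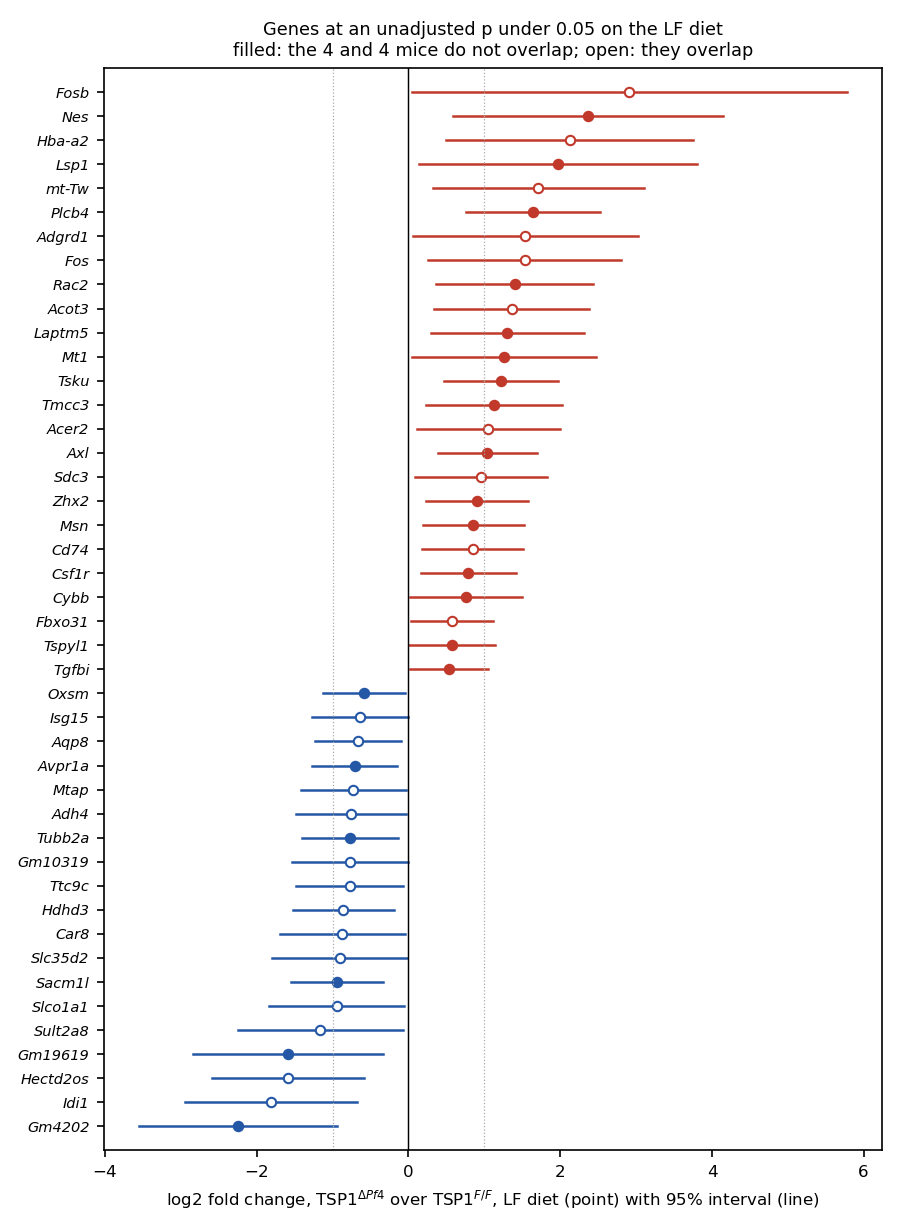
Log2 fold change of each of the 44 genes at an unadjusted p under 0.05, TSP1ΔPf4 over TSP1F/F on the LF diet, with its 95% interval as a line and dotted lines at a 2-fold change. Filled points are genes whose 4 and 4 mice do not overlap, 15 of those higher (red) and 6 of those lower (blue), and many intervals end close to 0.

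The remaining lists were read against the same 640 genes, of which 339 (53.0%) were above 0. The median over these genes, 0.03, was 0.11 without TSP1F/F replicate 3 and 0.04 without replicate 3 of either genotype. Of 10 tested fibrosis and matrix genes, 9 were above 0 and 0 leaned, with a median of 0.50 (0.34 without TSP1F/F replicate 3, 0.45 without replicate 3 of either genotype). Col4a1, a basement membrane collagen, had 7.52, 5.68, 4.69 and 8.93 CPM against 15.0, 10.9, 7.88 and 9.92 CPM, a difference of 0.70 (-0.01 to 1.41). Col1a2, of fibrillar collagen, gave 0.88 (-0.02 to 1.77), while Col3a1 gave 0.00 (-0.80 to 0.80) and Col1a1 0.54 (-1.56 to 2.65). Part of the exons of Col4a1 overlap Col4a2 on the other strand.

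Of 8 tested MHC class II presentation genes, 5 were above 0, Cd74 leaned higher, and the median was 0.17. The class II chains H2-Eb1, H2-Aa and H2-Ab1 gave 0.49, 0.20 and -0.04, each with an interval that covered 0. Of 7 tested chemokines and receptors, 5 were below 0 with a median of -0.48 and 0 leaned. Ccl2, which attracts monocytes, was at 0.574, 1.98, 1.71 and 0.263 CPM in TSP1F/F and at 0, 1.01, 0.234 and 0 CPM in TSP1ΔPf4 livers, a difference of -1.81 (-4.39 to 0.78). Its receptor gene Ccr2 gave 0.28 (-1.96 to 2.51) and Cxcl10, an interferon-inducible chemokine, -0.48 (-1.46 to 0.49). Cxcl5 was not tested, with 0.221 CPM in 1 TSP1F/F liver and 0.372 and 0.701 CPM in 2 TSP1ΔPf4 livers and 0 in the other 5.

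Of 12 tested interferon-stimulated genes, 8 were below 0, the median was -0.33, and Isg15, a ubiquitin-like protein, leaned lower with 26.1, 23.5, 35.9 and 29.2 CPM against 14.9, 12.5, 26.1 and 20.5 CPM, a difference of -0.63 (-1.27 to -0.0028). Ifit1 gave -0.42 (-0.99 to 0.14) and Gbp2 0.49 (-0.44 to 1.42). Without TSP1F/F replicate 3 the median of this list was 0.04, and without replicate 3 of either genotype -0.03. Of 12 tested male-biased hepatocyte genes, 8 were below 0 with a median of -0.35, which was 0.14 without the same mouse and -0.14 without replicate 3 of either genotype. Slco1a1 was the only gene of that list that leaned.

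Of 14 tested respiratory chain and mitochondrial genes, 8 were above 0 with a median of 0.03, and the 1 gene that leaned, mt-Tw, is a mitochondrial transfer RNA with 0.522 to 4.88 CPM in TSP1F/F and 3.61 to 17.4 CPM in TSP1ΔPf4 livers. It overlaps mt-Nd2 on the same strand. Of 9 tested cytochrome P450 genes, 4 were above 0 and 0 leaned, among them Cyp4a14, a fatty acid hydroxylase, at 0.44 (-0.18 to 1.06). Of 11 conjugation enzymes and 15 solute carriers tested, Sult2a8 leaned lower in the former and Slco1a1 and Slc35d2, a nucleotide sugar transporter, in the latter. Of 8 acute phase genes tested, Mt1 leaned higher, while Orm2 and Lcn2 gave -0.67 (-1.82 to 0.49) and 0.04 (-1.23 to 1.32). Plek, a platelet and leukocyte protein kinase C substrate, gave 0.17 (-1.05 to 1.39), and Cd68, a macrophage lysosomal protein, -0.11 (-1.52 to 1.29).

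The lean of a gene on the LF diet moved with its response to the AMLN diet. Of 372 genes whose AMLN mean lay above their LF mean in both genotypes, 247 were above 0, the median was 0.24, and 15 leaned higher and 3 lower. Of 223 genes whose AMLN mean lay below their LF mean in both, 62 were above 0, the median was -0.22, and 1 leaned higher and 11 lower. By these medians, LF-fed TSP1ΔPf4 livers were displaced from LF-fed TSP1F/F livers toward the AMLN level. Without TSP1F/F replicate 3 these medians were 0.20 and -0.03, beside 0.11 over all 640 genes. Without replicate 3 of either genotype they were 0.20 and -0.16, beside 0.04 over all genes. The size of the displacement thus depended on that 1 control mouse. The LF values serve both in the genotype difference and in the diet direction, and the median gene length was 4386 bases in the former class and 2101 in the latter, so the displacement is a description, with no test.

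**Figure D4:**
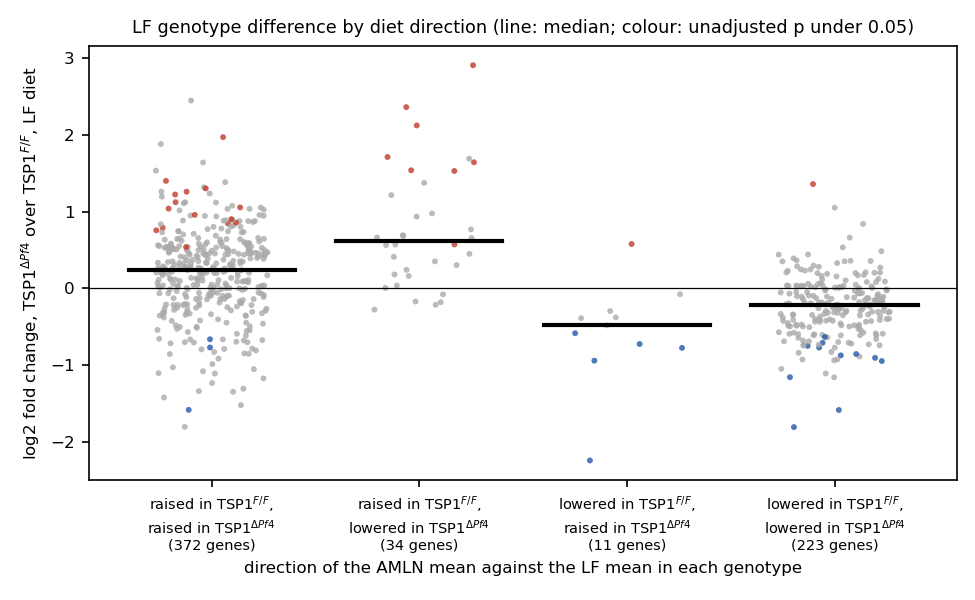
Log2 fold change of TSP1ΔPf4 over TSP1F/F on the LF diet for each of the 640 genes (points; red or blue at an unadjusted p under 0.05), split by whether the AMLN mean lay above or below the LF mean in each genotype, with the class median as a black line. The medians are 0.24, 0.61, -0.48 and -0.22 from left to right.

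In the 34 genes that were higher on AMLN in TSP1F/F and lower in TSP1ΔPf4 mice the median was 0.61 and 8 leaned higher, and in the 11 genes with the opposite pattern it was -0.48 and 5 leaned lower. A gene enters these classes in part through its LF levels, so their direction is set by the selection. Plcb4, Nes, Fos, Fosb, Adgrd1, Hba-a2, mt-Tw and Tspyl1 were the 8 genes, and Gm4202, Sacm1l, Ttc9c, Mtap and Oxsm the 5.

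On the AMLN diet, which was read in 8 other mice, most of the leaning genes of either direction lay below 0, as did most members. Of the 25 genes that leaned higher on LF, 8 were above 0 and 17 below on AMLN, with a median of -0.45, and of the 19 that leaned lower, 7 were above and 12 below, with a median of -0.34, beside a median of -0.33 over the 640 genes. Of the 44 genes, 5 were called on AMLN by edgeR. Of all 733 members tested on that diet, 62 (8.46%) were called lower and 4 (0.546%) higher. Fbxo31, a ubiquitin ligase subunit, was higher on both diets, by 0.58 (0.04 to 1.12) on LF and by 1.54 on AMLN (adjusted p = 0.00533 by edgeR), and Acot3 was higher on AMLN by 1.68 (adjusted p = 0.0298). Aqp8, a water channel of the bile canaliculus, was lower on both diets, at -0.67 (-1.24 to -0.09) on LF and -1.22 on AMLN (adjusted p = 0.0182). Fos and Fosb leaned higher on LF and were lower on AMLN, at -2.71 (adjusted p = 0.0232) and -4.80 (adjusted p = 0.0182).

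**Figure D5:**
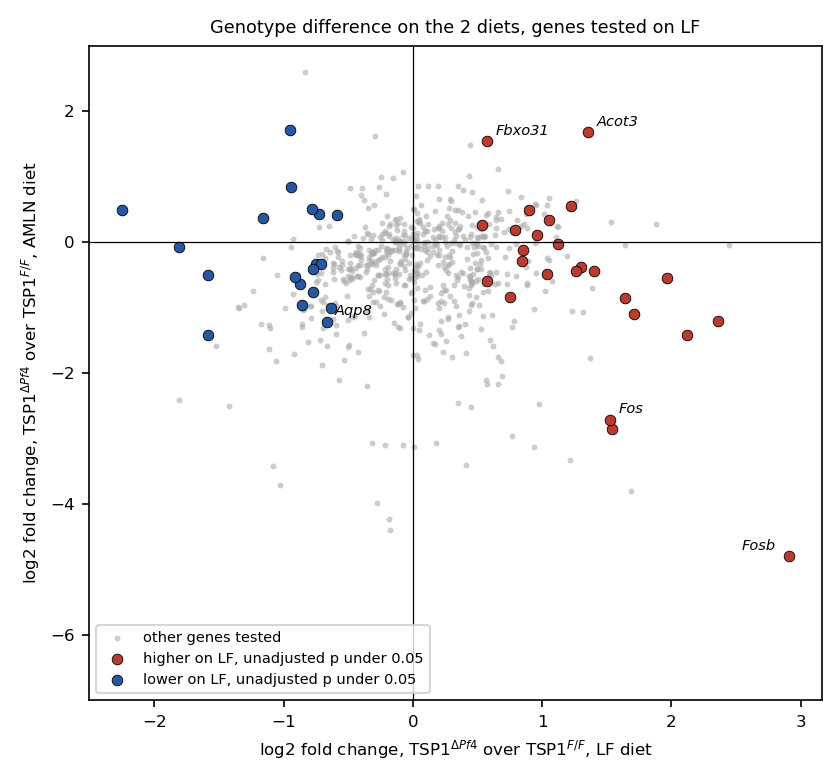
Log2 fold change of TSP1ΔPf4 over TSP1F/F on the LF diet (x axis) and on the AMLN diet (y axis) for the genes tested on LF, with the 25 genes that leaned higher in red, the 19 that leaned lower in blue and the others in grey. The 5 named genes were called on AMLN, and 17 of the red points lie below 0 on the AMLN axis.

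The difference between the genotype effects on the 2 diets, tested as an interaction in edgeR over all 16 mice, was called for 3 of 734 genes (0.409%), and 0 of the 44 leaning genes were among them. These 3 were Neat1, a nuclear long noncoding RNA, and the mitochondrial genes mt-Nd3 and mt-Th, with LF differences of 0.35 (-0.60 to 1.30), 0.57 (-0.34 to 1.48) and 0.77 (-0.59 to 2.12) and AMLN differences of -2.46, -2.17 and -2.97. Among the leaning genes the lowest adjusted p of the interaction was 0.050, in Sacm1l, Fos and Fosb, just above the threshold. For Axl, Rac2 and Plcb4, which leaned higher on LF, the AMLN differences were -0.49 (-1.15 to 0.18), -0.45 (-1.19 to 0.29) and -0.86 (-2.21 to 0.49).

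Thbs1 itself could not check the genotype labels. In the LF-fed TSP1F/F livers it had 0.313, 1.82, 0.717 and 0.375 CPM, from 6 to 34 counts, and its counts in TSP1ΔPf4 livers were not analysed here. Of 18 listed hepatocyte markers, 5 were members. Their sum was high in all 8 livers, at 22451 to 41584 CPM in TSP1F/F and 19445 to 36616 CPM in TSP1ΔPf4. Mup3, which is also on the male-biased list, took 13539 to 31672 CPM of the TSP1F/F sums. The range therefore follows Mup3 in large part and does not measure the share of hepatocytes.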

How the data were processed

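Liver RNA of 16 mice was sequenced by a service company as paired reads on a NovaSeq instrument. The paper names STAR 2.7.8a and the submitters' processing notes HISAT2, both with mm10, so the aligner is not settled. The counting program, annotation release and strand setting are not given in the sources used here. The authors deposited per gene raw counts, signal values (counts divided by a size factor per library) and FPKM values, beside their own fold changes and p-values for the diet, which were not used. Here FPKM gave levels per length. For 94.7% of members GENCODE M21 gives the same coordinates.

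Library totals were computed from counts, gene length and FPKM. They were 18135112 to 26649603 for TSP1F/F and 17127965 to 20700888 for TSP1ΔPf4 livers on LF, and were not whole numbers, so they may hold a scaling factor. Members took 10.1% to 18.5% of them. CPM are counts over these totals.

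The quasi-likelihood test of edgeR 4.0.16 (R 4.3.3, limma 3.58.1) compared 4 mice with 4 over the genes that filterByExpr kept, with adjustment over these. Calls needed both an adjusted p under 0.05 and a log2 fold change beyond 0.25 in size, and a gene "leaned" at an unadjusted p under 0.05. The dispersion was estimated from genes selected for the diet, and the 2 tables may not have been scaled together. Replicates are separate mice. The fit was tested on simulated data.

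Named genes were the largest non-overlapping rises and falls (up to 8 each), genes the paper names, the lowest p of each list, the 5 highest FPKM and the 3 narrowest intervals. Other named genes were chosen after their values were seen. Members and lists were chosen with earlier results of these data known.

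Alternatives were TMM factors, DESeq2 1.42.0 size factors and Wald test, other filters, all 16 mice, a replicate block, no fold threshold and each mouse left out.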

Additional observations from a re-analysis of the deposited data

Results flagged for a closer look

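Among the named genes 116 groups of 4 LF-fed mice were examined for a mouse whose gap to the next took a share of the group's range above Dixon's 95% critical value. There were 11 such groups, and 4 of them were TSP1F/F replicate 3. The critical value assumes independent normal values, whereas these genes share the same libraries, so the count is not set against a chance rate. That mouse had 19.2 CPM of Adgre1 (3.48 to 3.86 in the other 3), 31672 CPM of Mup3 (13539 to 15844), 1509 CPM of Slco1a1 (421 to 508) and 0.221 CPM of Cxcl5 (0 in the others). TSP1F/F replicate 1 stood apart with 3.97 CPM of Col1a1 (0.0551 to 0.697) and 25.6 CPM of Orm2 (4.29 to 7.43). Among TSP1ΔPf4 livers, replicate 3 had 501 CPM of Slco1a1 (328 to 348) and 26.2 CPM of Dnajc12, a co-chaperone (8.82 to 11.4), replicate 4 had 5993 CPM of Cyp4a14 (4679 to 4695), replicate 1 had 17.4 CPM of Hba-a2 (1.06 to 3.24), and replicate 2 had the low value of 13.2 CPM of the endothelial gene Stab2 (18.3 to 19.0).

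The genotype effect differed between the diets for 3 genes by the interaction in edgeR. The AMLN effect minus the LF effect was -2.81 on the log2 scale for Neat1 (adjusted p = 0.0455), -2.74 for mt-Nd3 (0.0455) and -3.74 for mt-Th (0.0495). On LF, TSP1ΔPf4 replicate 3 was the highest of the 8 mice in each of them, at 89.9, 172 and 26.6 CPM.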

How the results depend on the processing

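The count of 0 called genes held in edgeR under every scaling, filter, block, fold threshold and left-out mouse that was tried, and DESeq2's Wald test called 1 gene higher, Plcb4 (1.59, adjusted p = 0.0241), with 27 leaning higher and 37 lower. The split of leaning genes, 25 higher and 19 lower, was 23 and 23 with TMM factors and 19 and 27 with DESeq2 size factors in edgeR, so which direction holds more genes is not settled. With all 16 mice in 1 fit it was 44 and 29. With a replicate block it was 45 and 40. The labels do not say that same-numbered mice are pairs, and the main fit did not take them as such. The deviations of same-numbered mice correlated at 0.23, 0.10, 0.48 and -0.05, and 3 of the 4 TSP1F/F mice correlated best with their own number. Whether the numbers mark a shared batch is therefore not settled. The cause of these shifts was not tested. Leaving out 1 mouse gave 13 to 35 leaning higher, 9 to 38 leaning lower and 41 to 79 without overlap (main count 32), the last in part because 3 mice overlap less easily than 4. The lower count was 9 without TSP1F/F replicate 3 or TSP1ΔPf4 replicate 4, 10 without TSP1ΔPf4 replicate 1 or 2, 12 without TSP1F/F replicate 2, and 33, 34 and 38 without TSP1F/F replicate 1, TSP1F/F replicate 4 and TSP1ΔPf4 replicate 3. The higher count was 13 and 14 without TSP1ΔPf4 replicates 1 and 2. Without replicate 3 of either genotype, chosen after seeing the data, 24 leaned higher, 20 lower and 92 did not overlap. All 44 leaning genes kept their sign with each mouse left out, and 13 kept an unadjusted p under 0.05 in all 8 fits (9 higher, 4 lower). These genes were selected in the same mice that the fits reuse, so a kept sign is no separate support for a difference. The median stayed within -0.02 and 0.11.

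Sign changes were seen in named genes that did not lean. Lcn2 became -0.033 with TMM factors, -0.082 with DESeq2 size factors and -0.084 with the Wald test, Ttr -0.017 and -0.018 with the latter 2, and Themis 0.38 with the replicate block. Without replicate 3 of either genotype, Cd68 was 0.07, Lcn2 -0.31, Plek -0.25 and Ttr -0.039, while Ndrg2 (0.078) and Orm2 (-0.95) kept their sign. With single mice left out the ranges were -0.33 to 1.15 for Adgre1, -0.060 to 1.46 for Bicc1, -0.20 to 0.65 for Ccnd1, -0.53 to 0.61 for Ccr2, -0.58 to 0.23 for Cd68, -0.0397 to 2.01 for Col1a1, -0.17 to 0.31 for Fabp1, -0.30 to 0.66 for Lcn2, -0.76 to 0.023 for Mup3, -0.79 to 0.063 for Myl7, -0.021 to 0.066 for Ndrg2, -0.94 to 0.14 for Orm2, -0.13 to 0.45 for Plek, -0.060 to 0.15 for Rbp4, -0.42 to 0.11 for Serpina3k, -0.62 to 0.64 for Themis and -0.10 to 0.074 for Ttr. Depth limited the low genes: 76 tested members had under 50 counts in every LF library.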
